A study of Rattus norvegicus with 6 samples.

Results

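The 8 chemokine receptors Ccr1, Ccr2, Ccr7, Cxcr3, Cxcr4, Cxcr5, Cxcr6 and Ackr3 were followed in the ipsilateral lumbar spinal cord of rats with bone cancer pain (BCP) and of sham-operated rats. They were chosen by gene symbol, and each matched 1 of the 30957 genes in the count table. Total RNA depleted of ribosomal RNA was sequenced from 3 BCP and 3 sham-operated rats, 1 library each. All were female Wistar rats, and tissue was taken on day 14 after surgery from the lumbar enlargement, with the meninges removed. Living Walker 256 cells, a rat mammary carcinoma line, were placed in the left tibia of BCP rats. The sham group was given the same cells after killing by heat, so both groups carried the surgery and tumor cell material. The libraries are labelled as replicates, and p-values measure only the spread between them.

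Chemokine receptors are proteins of 7 membrane-spanning segments that guide leukocytes along gradients of chemokines, small secreted proteins. Most couple to inhibitory G proteins, which act on phosphoinositide 3-kinase gamma, phospholipase C beta and the Rac exchange factors that drive cell movement. Ackr3 is an atypical member that binds Cxcl12 and Cxcl11 and recruits arrestin without the usual G protein signal. Cxcr4 is the signaling receptor of Cxcl12. Cxcr3 marks activated T helper 1 cells, cytotoxic T cells and natural killer cells, and Cxcr6 marks effector and tissue-resident lymphocytes. Ccr7 and Cxcr5 direct lymphocytes into the T and B cell areas of lymphoid organs, and Ccr1 and Ccr2 are receptors of monocytes and other myeloid cells. In the nervous system Cxcr4 and Ackr3 are also made by cells other than leukocytes.

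Counts on genes ranged from 11779485 to 15004290 per library. Levels are given as CPM, counts scaled to a common library size after TMM normalization, or as FPKM, which also divides by the length of the gene model, where genes are compared with each other. A gene was called where edgeR's quasi-likelihood test gave a p-value under 0.05 after Benjamini-Hochberg adjustment and the change was more than 2-fold. Of 14908 genes tested, 946 (6.35%) were up-regulated and 16 (0.107%) were down-regulated in BCP rats. Neurons and oligodendrocytes were present by their markers in every library. The summed level of 6 neuronal genes was 2434 to 2574 CPM in sham and 2294 to 2495 CPM in BCP libraries. The sum of 4 oligodendrocyte genes was lower in all BCP libraries, at 35180 to 40317 CPM in sham and 25092 to 28089 CPM in BCP libraries.

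Cxcr3 and Cxcr6 were the receptors called up-regulated, both from a sham level near 0. Cxcr4 was about 1.69-fold higher in BCP rats, and Ackr3, the most abundant of the 8 in both groups, had lower counts in every BCP library than in any sham library without passing the adjusted test. Ccr1, Ccr2, Ccr7 and Cxcr5 had counts too low to enter the test. Cxcr3 and Cxcr6 entered it only through their BCP libraries, so the share of tested receptors that were called is not read against the 6.35% of all genes. None of the 8 was called down-regulated. Because whole tissue was sequenced, more cells of a type and more RNA per cell cannot be told apart in any of these values.

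**Figure D1:**
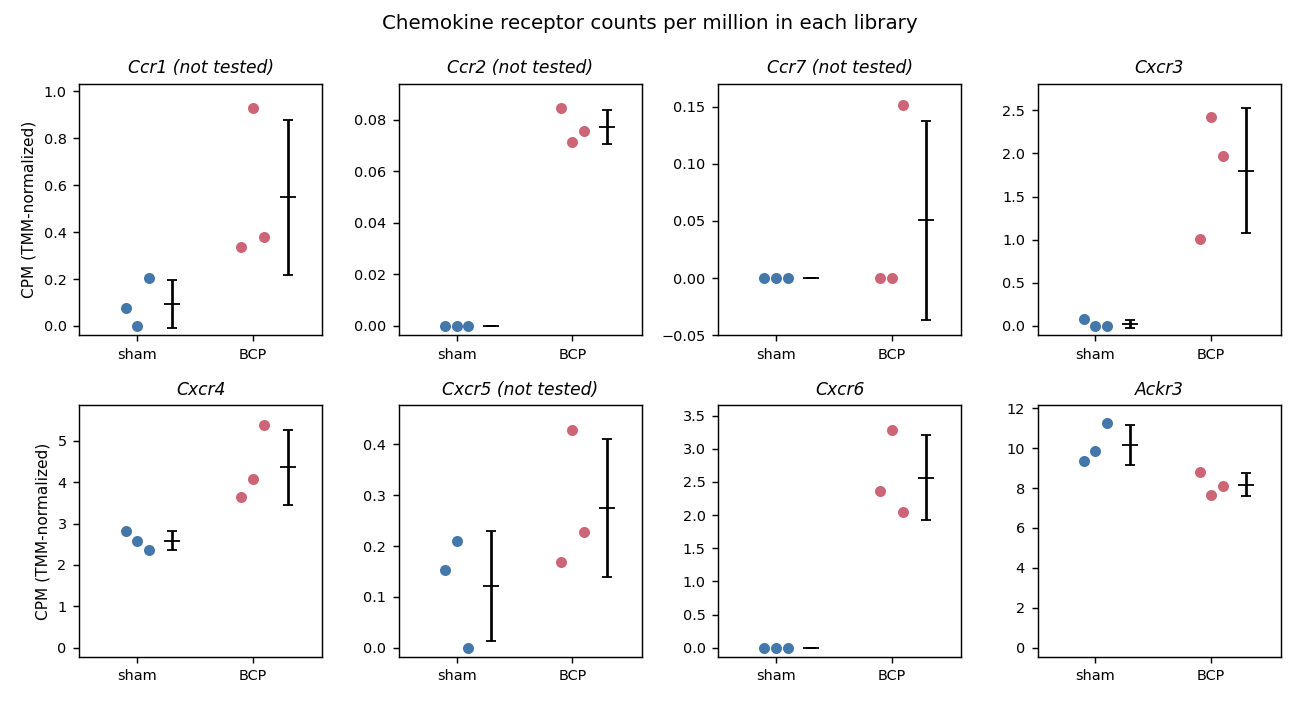
TMM-normalized CPM of the 8 receptors in each library, 1 panel per gene with its own scale. Points are libraries, in the order of replicates 1 to 3, and bars show the mean and SD of 3 libraries. Cxcr3, Cxcr4 and Cxcr6 lie higher in all BCP libraries, Ackr3 lies lower, and the other 4 panels show counts of at most 13 per library.

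The 250 bases before and 50 bases after the annotated start of the 4 tested receptors are shown so that the pair near 0 in sham rats and the pair present in sham rats can be set side by side. They come from RefSeq on build GRCr8 and are written 5′ to 3′ on the strand of the gene. The 50 bases after the annotated start of Cxcr6 open with atg, the letters of a start codon. That start may be where the coding sequence begins, so the Cxcr6 window is not shown to be its promoter. Capitals mark matches to TATAAA, the letters of a TATA box, or to its reverse complement.
Cxcr3 promoter, chrX:70886895-70887194, minus strand: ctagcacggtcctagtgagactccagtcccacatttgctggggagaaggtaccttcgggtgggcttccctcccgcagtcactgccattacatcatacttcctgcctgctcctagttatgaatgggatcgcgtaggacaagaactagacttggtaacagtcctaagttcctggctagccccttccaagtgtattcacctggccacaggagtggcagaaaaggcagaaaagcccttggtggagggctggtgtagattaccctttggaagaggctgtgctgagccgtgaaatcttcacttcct
Cxcr6 promoter, chr8:132314956-132315255, plus strand: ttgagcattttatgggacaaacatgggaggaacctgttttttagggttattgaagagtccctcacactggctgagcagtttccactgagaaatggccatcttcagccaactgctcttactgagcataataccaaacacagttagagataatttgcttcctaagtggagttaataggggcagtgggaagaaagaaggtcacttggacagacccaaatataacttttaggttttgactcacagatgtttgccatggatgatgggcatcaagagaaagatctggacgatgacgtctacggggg
Cxcr4 promoter, chr13:42634239-42634538, minus strand: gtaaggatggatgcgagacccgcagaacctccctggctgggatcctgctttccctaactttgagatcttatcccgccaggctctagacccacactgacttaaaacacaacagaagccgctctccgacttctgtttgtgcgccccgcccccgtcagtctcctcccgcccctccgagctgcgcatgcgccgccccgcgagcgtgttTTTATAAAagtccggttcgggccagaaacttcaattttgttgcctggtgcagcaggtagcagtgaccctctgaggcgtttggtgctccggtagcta
Ackr3 promoter, chr9:98247104-98247403, plus strand: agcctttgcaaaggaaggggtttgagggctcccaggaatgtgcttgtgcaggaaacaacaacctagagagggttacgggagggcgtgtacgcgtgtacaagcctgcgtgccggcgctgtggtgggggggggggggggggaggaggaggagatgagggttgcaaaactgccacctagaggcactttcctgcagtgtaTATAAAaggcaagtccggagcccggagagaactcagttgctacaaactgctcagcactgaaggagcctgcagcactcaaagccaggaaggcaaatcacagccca

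RefSeq windows were matched for 6 of the 8 receptors, the above and those of Ccr1 and Ccr2. On either strand, none of the 6 held TTCNNNGAA (a STAT site), GGAANTTCC (a kappa-B type site) or GAGGAAGT (a PU.1 type site), which stand in 8.87%, 0.872% and 2.42% of all 33469 promoter windows. TATAAA, searched after the windows had been read, stood in 2 of the 6, Cxcr4 and Ackr3, and in 14.2% of all windows. It began 44 bases before the start of Cxcr4 and 54 bases before that of Ackr3. For Cxcr6, whose annotated start falls on an atg, the absence of these matches may not describe its promoter. In Cxcr4 the reverse match overlaps the forward match.

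Cxcr3 (ENSRNOG00000003305, Rnor_6.0 chromosome X, 71614346 to 71616997) is the receptor of the interferon-induced chemokines Cxcl9, Cxcl10 and Cxcl11. It had 1, 0 and 0 counts in sham libraries 1 to 3 and 12, 34 and 26 counts in BCP libraries 1 to 3. The groups did not overlap, and BCP 1 was the lowest of the BCP libraries. The mean level was 0.0254 ± 0.0440 CPM in sham rats and 1.80 ± 0.721 CPM in BCP rats (SD, n = 3 each). The log2 fold change was 5.80 ± 0.75 (SE), with an edgeR adjusted p-value of 5.96e-06. Without sham 1, which held the only sham count, the log2 fold change was 7.65. With only 1 sham count, the ratio of counts per read, 77.9, had a 95% interval of 13.5 to 3120 that covers counting error only.

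Cxcr6 (ENSRNOG00000006319, chromosome 8, 132869712 to 132870767) is the receptor of Cxcl16, a chemokine that is also made as a membrane-bound protein. No sham library held a count of Cxcr6, and BCP libraries 1 to 3 held 28, 46 and 27. The deposited gene model of Cxcr6 is 1 stretch of 1056 bases, so reads from any other exon would not be counted. The mean BCP level was 2.56 ± 0.644 CPM (SD, n = 3). Against a floor of 3 counts per sham library, Cxcr6 was at least 12-fold higher in BCP rats. The edgeR adjusted p-value was 4.20e-07, and the fitted log2 fold change of 8.13 ± 0.80 (SE) depends on the prior count.

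Cxcr6 lies inside the span of Fyco1, an adaptor gene of autophagosome transport with 915, 1060 and 1063 counts in sham rats and 972, 1108 and 996 in BCP rats. Fyco1 was not called, with a log2 fold change of 0.13 ± 0.06 (SE) and an edgeR adjusted p-value of 0.0993. Sham libraries thus had no Cxcr6 count beside about as many Fyco1 counts as the BCP libraries. Cxcr6 also lies within the genomic span, introns included, of a noncoding transcript of 411 bases, NONRATT029115.2. It had 7, 10 and 4 counts in sham and 4, 5 and 7 in BCP libraries, too few to be tested, and these ranges overlap. The span of another, NONRATT029655.2, overlaps that of Ackr3 and had 10, 2 and 1 counts in sham and 0, 0 and 2 in BCP libraries, also below the filter. Whether strand was used in counting is not given in the sources used here.

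Markers of T cells and natural killer cells moved with Cxcr3 and Cxcr6. The 7 T cell markers in the table (of 9 listed) were called up-regulated, but Cd3e, Cd3d, Cd3g, Cd2 and Cd8a had at most 6 counts in any sham library and entered the test only through BCP libraries. Lck, with 20, 12 and 9 counts in sham libraries, also needed its BCP libraries to enter the test. The summed level of the 7 was 6.08 to 6.63 CPM in sham and 48.9 to 56.0 CPM in BCP libraries. Cd3d was at 0 in every sham library, while Cd4, which microglia of rats can also express, made up most of the sham sum at 5.09 CPM. Of 4 natural killer cell markers, Klrd1, Nkg7 and Gzmb also entered the test only through BCP libraries and were called, while Ncr1, with 1, 0 and 0 counts in sham and 1, 6 and 0 in BCP libraries, was not tested. The sums of this list were 0.0675 to 0.349 CPM in sham and 6.50 to 13.5 CPM in BCP libraries. Both tested red blood cell markers also rose, from sums of 23.1 to 24.8 CPM to sums of 54.7 to 69.0 CPM. The part of these cells, or of blood left in the tissue, in the receptor values was not tested.

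The genes most like Cxcr3 by the root mean square (RMS) difference of log2 CPM centred on the sham mean, over 6 libraries, were Tigit (0.22), Ch25h (0.25) and Gpr18 (0.26). The log2 CPM included a prior count of 2, which shrinks differences of genes near 0. Tigit, an inhibitory receptor of T and natural killer cells, averaged 0.0254 CPM in sham and 1.67 CPM in BCP rats. Ch25h, an enzyme that makes a hydroxycholesterol, averaged 2.99 and 31.6 CPM, and Gpr18, a G protein-coupled receptor, averaged 0.218 and 3.54 CPM. Those most like Cxcr6 were Sh2d2a (0.18), Themis (0.24) and Clec12a (0.24). Sh2d2a, an adaptor of T cells, was at 0 in all sham libraries and averaged 2.58 CPM in BCP rats, and Themis, a regulator of T cell receptor signaling, averaged 0.0225 and 2.53 CPM. Clec12a, a lectin receptor of myeloid cells, averaged 1.09 and 23.2 CPM. The fitted fold change of Clec12a was smaller than that of Cxcr6, and that of Ch25h was smaller than that of Cxcr3. Their likeness to these receptors therefore depends on the prior count, and no cell type is read from it.

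Cxcr4 (ENSRNOG00000003866, chromosome 13, 45314933 to 45318878) had 37, 37 and 35 counts in sham and 43, 57 and 71 in BCP libraries. The sham libraries were close together, the BCP libraries were spread, and the groups did not overlap. Mean levels were 2.59 ± 0.228 and 4.36 ± 0.905 CPM (SD, n = 3 each). The log2 fold change was 0.76 ± 0.23 (SE, 95% interval 0.27 to 1.24), with an edgeR adjusted p-value of 0.0187. It was not called because the change was below 2-fold. The adjusted p-value exceeded 0.05 with DESeq2 (0.0731) and without sham 2 (0.0571), sham 3 (0.0642) or BCP 3 (0.130) in edgeR. Without BCP 3 the log2 fold change was 0.58.

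Ackr3 (ENSRNOG00000019622, chromosome 9, 97355924 to 97367445) had 123, 141 and 167 counts in sham and 104, 107 and 107 in BCP libraries. Its mean level was 10.2 ± 0.992 CPM in sham and 8.17 ± 0.577 CPM in BCP rats (SD, n = 3 each). Every BCP library was below every sham library, as for 19.8% of all tested genes. All BCP libraries were above all sham libraries for 21.7% of tested genes, and Cxcr3, Cxcr4 and Cxcr6 were among these. The log2 fold change of Ackr3 was -0.32 ± 0.15 (SE, 95% interval -0.62 to -0.02), and the edgeR adjusted p-value of 0.115 did not pass the threshold.

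The FPKM of Cxcr4 divided by that of Ackr3 was 0.187, 0.163 and 0.131 in sham and 0.257, 0.332 and 0.413 in BCP libraries. The ratio was higher in all 3 BCP libraries, with means of 0.160 ± 0.0285 and 0.334 ± 0.0779 (SD, n = 3 each). A 2-sided exact permutation test gave p = 0.1, the smallest that 3 against 3 libraries allow. Cxcr4 was higher and Ackr3 lower in every BCP library, so this separation and its p-value were fixed in advance. The ratio restates those 2 differences and adds no further test.

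By the same RMS measure Cxcr4 was most like Marc1 (0.07), Txn1 (0.08) and Fam198b (0.08). Txn1 encodes the redox protein thioredoxin and averaged 16.3 CPM in sham and 27.5 CPM in BCP rats. Ackr3 was most like 4930452B06Rik (0.03), Sbk1 (0.04) and Dmpk (0.05). Dmpk, a serine/threonine kinase, averaged 48.0 and 37.9 CPM.

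The remaining 4 receptors were below the filter of the test. Ccr1 (ENSRNOG00000006715, chromosome 8, 132996649 to 133002201), a receptor of Ccl3 and Ccl5, had 1, 0 and 3 counts in sham and 4, 13 and 5 in BCP libraries. All BCP values lay above the sham values, and the ratio of counts per read was 5.95 with a counting interval of 2.02 to 23.8. When the filter was dropped, the log2 fold change was 2.45 with an adjusted p-value of 0.0342 in edgeR. Ccr1 had an adjusted p-value of 0.126 in DESeq2.

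Cxcr5 (ENSRNOG00000012430, chromosome 8, 48836957 to 48850671), the receptor of Cxcl13 on B cells and follicular helper T cells, had 2, 3 and 0 counts in sham and 2, 6 and 3 in BCP libraries. These ranges overlap, and the ratio of 2.38 had a counting interval of 0.763 to 8.74. No B cell marker was abundant enough to be tested, and the summed level of 5 such genes was 0.209 to 0.540 CPM in sham and 0.928 to 1.13 CPM in BCP libraries.

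Ccr7 (ENSRNOG00000010665, chromosome 10, 87057136 to 87067456), the receptor of Ccl19 and Ccl21, had 2 counts in BCP 3 and none in the other 5 libraries. Ccr2 (ENSRNOG00000059979, chromosome 8, 133195288 to 133197177), the receptor of Ccl2, Ccl7 and Ccl12 on inflammatory monocytes, had 1 count in each BCP library and none in sham libraries. Both stayed within the floor of 3 counts per library, so no fold is given, and a difference was not detectable at this depth. The length implied by the counts and FPKM of Ccr2 was 286 bases of a gene span of 1890 bases. Counts of Ccr2 therefore cover little of the gene and are uncertain.

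Markers of monocytes and macrophages were mixed beside these low counts. Of 4 tested, Lyz2 and Fcnb were called up-regulated and Mrc1 and Cd163 were not called. Fcnb had 11, 4 and 3 counts in sham and 312, 673 and 568 in BCP libraries, and entered the test only through its BCP libraries. The list's sum was 42.4 to 52.0 CPM in sham and 452 to 679 CPM in BCP libraries. Lyz2, a lysozyme gene of myeloid cells, made up most of the BCP sum with a mean of 532 CPM. Of 6 neutrophil markers, Csf3r and S100a8 were tested and called, S100a8 through its BCP libraries alone, and 4 were not tested. Of these, Mpo and Elane had overlapping groups, while S100a9 and Mmp8 were higher in all BCP libraries. S100a9 had 0, 2 and 3 counts in sham and 15, 9 and 10 in BCP libraries. Mmp8 had 2, 0 and 2 counts in sham and 24, 18 and 5 in BCP libraries. Of the epithelial tumor markers only Krt18 was tested, and it was not called.

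On the FPKM scale, the order of the 8 receptors in sham rats was led by Ackr3 at 5.18 ± 0.515 and Cxcr4 at 0.821 ± 0.0700 (SD, n = 3), which did not overlap. Cxcr5 (0.0795), Ccr1 (0.0496) and Cxcr3 (0.0138) followed with overlapping ranges, and Ccr2, Ccr7 and Cxcr6 were at 0. In BCP rats Ackr3 led at 4.28 ± 0.273, followed by Cxcr6 at 2.46 ± 0.624, Cxcr4 at 1.42 ± 0.304 and Cxcr3 at 1.01 ± 0.409. On this scale Cxcr6 was the second of the 8 in BCP rats, above Cxcr4 in all 3 libraries, while Cxcr4 and Cxcr3 overlapped. The place of Cxcr6 above Cxcr4 rests on implied lengths of 1056 and 3109 bases. In CPM the order was the reverse, with Cxcr6 at 2.37, 3.28 and 2.04 and Cxcr4 at 3.63, 4.07 and 5.37 in BCP libraries 1 to 3. Ccr1 (0.302), Ccr2 (0.274) and Cxcr5 (0.187) came next with overlapping ranges, and Ccr7 was last at 0.0361. The level of Ccr2 rests on the short implied length given above.

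Over 21 chemokine receptor genes, the 8 receptors summed to 5.83, 5.99 and 6.61 FPKM in sham and 9.14, 10.9 and 9.85 FPKM in BCP libraries. Their share of the FPKM of these 21 genes was 18.8%, 21.2% and 23.2% in sham and 14.4%, 15.1% and 12.9% in BCP libraries, lower in every BCP library although the sum was higher. The summed FPKM of the other 13 receptors was 25.1, 22.2 and 21.9 in sham and 54.5, 61.3 and 66.7 in BCP libraries. Cx3cr1, the fractalkine receptor of microglia, was the most abundant of the 21 in both groups, and Ackr3 came next.

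**Figure D2:**
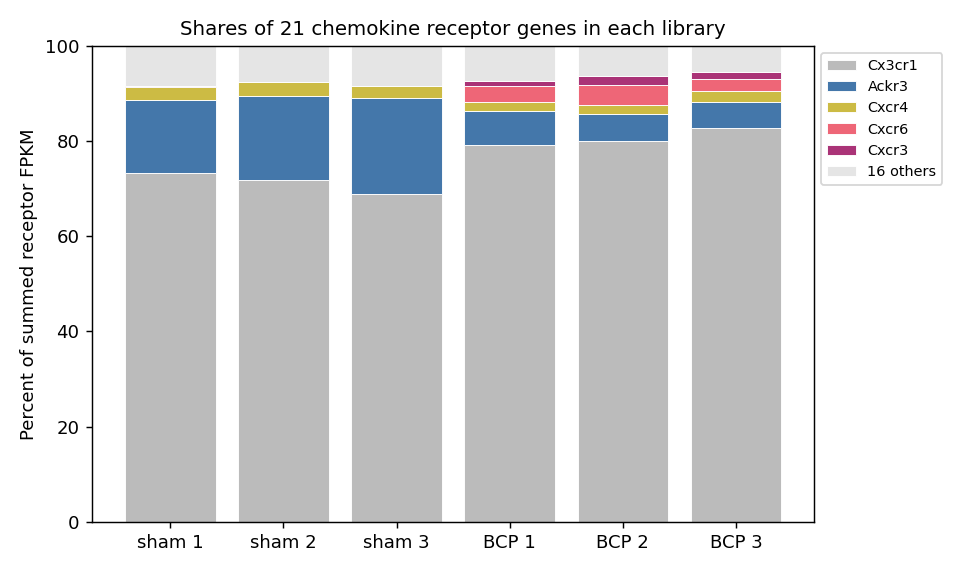
Share of each receptor in the summed FPKM of 21 chemokine receptor genes, as stacked bars from 0 to 100%, 1 bar per library. Cx3cr1 takes most of every bar, Ackr3 takes 15.4% to 20.2% in sham and 5.56% to 7.17% in BCP libraries, and Cxcr6 takes 2.58% to 4.38% in BCP libraries only.

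Of the other 13 receptors compared, 3 were tested. Cx3cr1 had 401, 389 and 391 counts in sham and 786, 1055 and 1087 in BCP libraries. It rose by 1.42 ± 0.09 and Ccrl2, an atypical receptor that binds chemerin, by 1.70 ± 0.39 on the log2 scale (SE), with edgeR adjusted p-values of 2.29e-10 and 0.00243. Ccrl2 had 13, 18 and 4 counts in sham and 41, 36 and 29 in BCP libraries, and needed its BCP libraries to enter the test. Ackr4, a scavenger of Ccl19 and Ccl21, had 38, 32 and 49 counts in sham and 19, 23 and 29 in BCP libraries. Like Ackr3 it was lower in every BCP library, and its log2 fold change of -0.63 ± 0.28 (SE) had an adjusted p-value of 0.0993. Among the untested receptors Xcr1, a receptor of cross-presenting dendritic cells, had 5, 7 and 5 counts in BCP and none in sham libraries, at least 2.03-fold higher against the same floor. Of 4 tested dendritic cell markers, Itgax and Cd74 were up-regulated and Flt3 and Zbtb46 were not called. Flt3 and Zbtb46 had means of 40.6 and 6.89 CPM in sham and 37.7 and 6.89 CPM in BCP rats. Itgax had 7, 8 and 6 counts in sham and 382, 508 and 456 in BCP libraries, and entered the test only through its BCP libraries. The others of the 6 listed, Batf3 and Clec9a, were not tested. Batf3 had no count in sham and 8, 6 and 2 in BCP libraries. Clec9a had 1, 5 and 0 counts in sham and 3, 3 and 10 in BCP libraries, which overlap. The list summed to 57.5 to 63.8 CPM in sham and 900 to 955 CPM in BCP libraries. Cd74, an MHC class II chain that is not specific to dendritic cells, made up most of the BCP sum at 855 CPM. Cxcr2 of neutrophils had 0, 0 and 1 counts in sham and 11, 4 and 6 in BCP libraries. Ccr6 had 7 and 6 counts in BCP 2 and BCP 3 and none elsewhere. Ccr3, Ccr8, Ccr9, Ccr10 and Ackr2 had at most 10 counts in any library, and Ccr4 and Cxcr1 had none.

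Cxcr6, Ccr1 and Ccr2 are neighbors on chromosome 8 (Rnor_6.0). The stretch of 9 genes from Ccr9 to Ccr2, 132828091 to 133197177, holds 7 chemokine receptor genes, Ccr9, Cxcr6, Xcr1, Ccr1, Ccr3, Ccr1l1 and Ccr2. Of these 5 had no count in any sham library. By the looser criterion of a count in at least 1 BCP library, 6 were present. They include Ccr9 with 2, 2 and 0 counts and Ccr2 with 1 in each BCP library. No share over all genes was taken beside these numbers, so they are not read as a result about the stretch. Counts differed among the receptors of this stretch. Ccr3 had 6 counts in sham 1 and 1 in BCP 3, and Ccr1l1 had none.

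**Figure D3:**
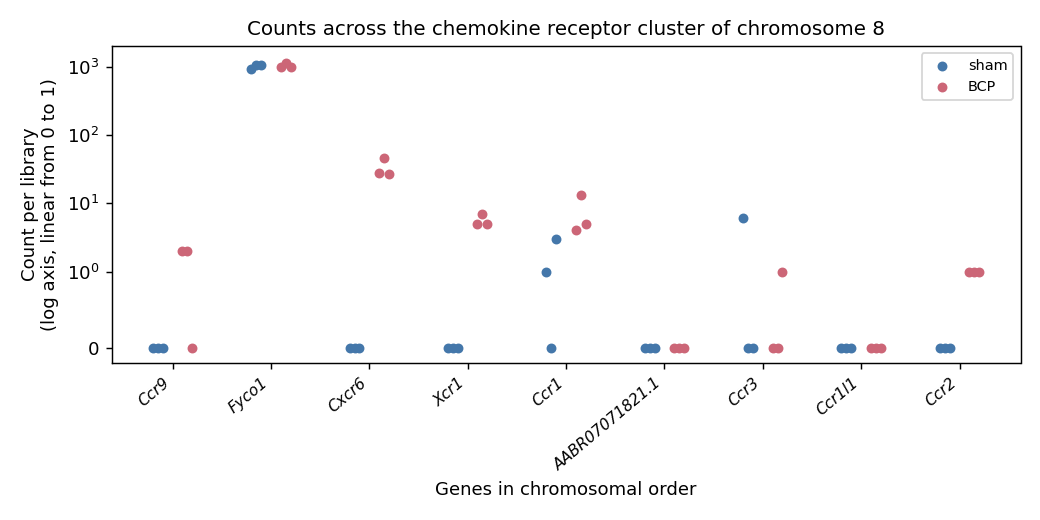
Counts per library (log axis, linear from 0 to 1) for the 9 genes of the chromosome 8 stretch in their order along the chromosome. Cxcr6 and Xcr1 lie at 0 in sham libraries and above 0 in all BCP libraries, while Fyco1, which surrounds Cxcr6, lies between 915 and 1108 counts in all libraries.

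To relate the receptors to leukocyte RNA, the log2 ratio of each tested receptor's count to that of Ptprc, the gene of the pan-leukocyte antigen CD45, was taken in each library after adding 0.5 to both counts. Ptprc itself averaged 14.0 ± 3.17 CPM in sham and 149 ± 22.0 CPM in BCP rats (SD, n = 3 each). Relative to Ptprc, Cxcr3 was higher in BCP rats by 1.65 and Cxcr6 by 2.74 on the log2 scale. The same difference was -2.70 for Cxcr4 and -3.74 for Ackr3, both lower in BCP rats. With Csf1r, a receptor gene of microglia and macrophages, as the reference, the differences were 3.64 for Cxcr3, 4.73 for Cxcr6, -0.71 for Cxcr4 and -1.75 for Ackr3. The references themselves rose, Ptprc by 3.42 ± 0.21 and Csf1r by 1.44 ± 0.16 on the log2 scale (SE). Any gene that rises less than its reference is lower by this ratio. The negative differences of Cxcr4 and Ackr3 thus largely restate the rise of Ptprc and Csf1r and are no separate result. With 0.5 added, the groups did not overlap in any of these 8 ratios. Each had p = 0.1 in a 2-sided exact permutation test, the smallest possible, and 0.1 after adjustment. For Cxcr3 and Cxcr6, whose sham counts were 0 or 1, the direction relative to Ptprc depends on the 0.5 added. With receptor counts under 3 set to the floor of 3, an alternative chosen after seeing the data, the differences to Ptprc were -0.62 for Cxcr3 and -0.067 for Cxcr6, with overlapping groups, and those to Csf1r were 1.36 and 1.92. Whether Cxcr3 and Cxcr6 differed more than Ptprc was therefore not settled by these counts.

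**Figure D4:**
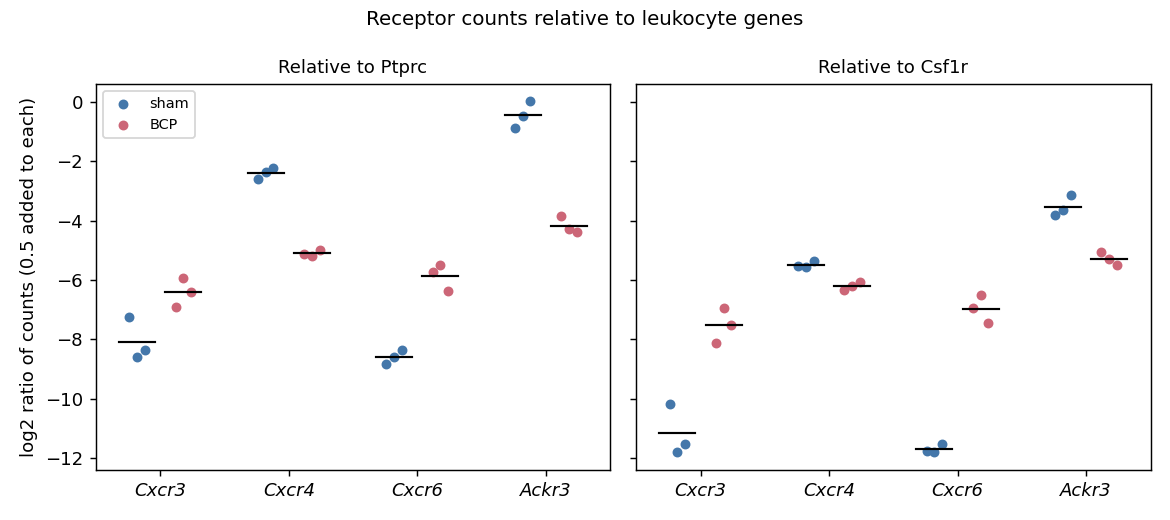
Log2 ratio of receptor counts to counts of Ptprc (left) and Csf1r (right), with 0.5 added to each count. Points are libraries and lines are group means. Cxcr4 and Ackr3 lie lower in BCP than in sham libraries in both panels. Cxcr3 and Cxcr6 lie higher, but their sham points come from counts of 0 or 1, and with a floor of 3 counts they no longer lie higher relative to Ptprc.

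Of 15 ligand genes of the 8 receptors in the table, 12 were tested, and 10 were called up-regulated. Several of these, among them Ccl3, Ccl7 and Ccl12 with 1 sham count each, were abundant enough for the test only in BCP libraries, so this count is not read against the 6.35% of all genes. For Cxcr3, Cxcl9 had 28, 22 and 4 counts in sham and 653, 960 and 1078 in BCP libraries, and its log2 fold change was 5.73 ± 0.44 (SE, edgeR adjusted p-value 0.00112). Cxcl10 had 449, 258 and 48 counts in sham and 1816, 3106 and 2016 in BCP libraries, with a log2 fold change of 3.28 ± 0.73 (SE) and an edgeR adjusted p-value of 0.0383. Sham 3 was the lowest library for both. The call of Cxcl10 was lost without sham 2 or any single BCP library, at edgeR adjusted p-values from 0.0858 to 0.134. Its log2 fold change was 4.06 without sham 1 and 2.76 without sham 3. Cxcl11 had 115, 31 and 6 counts in sham and 207, 396 and 316 in BCP libraries. Its log2 fold change of 2.67 ± 0.84 (SE) had an edgeR adjusted p-value of 0.0934, and without sham 1 it was 4.19 with an adjusted p-value of 0.0156.

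For Cxcr6, Cxcl16 had 135, 105 and 106 counts in sham and 1166, 1756 and 1711 in BCP libraries, a log2 fold change of 3.84 ± 0.17 (SE). Both receptor and ligand were thus up-regulated, but the ligand was present in sham rats at 8.26 CPM and the receptor was not detected. For Cxcr4 and Ackr3, Cxcl12 had 532, 649 and 773 counts in sham and 773, 804 and 922 in BCP libraries. Its log2 fold change of 0.48 ± 0.09 (SE) had an edgeR adjusted p-value of 0.00113 but was below 2-fold. For Cxcr5, Cxcl13 had 5, 5 and 3 counts in sham and 1337, 2246 and 2435 in BCP libraries, with a log2 fold change of 8.91 ± 0.43 (SE), while Cxcr5 had at most 6 counts in any library.

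For Ccr2, the ligands Ccl2, Ccl7 and Ccl12 rose by 5.02, 5.01 and 6.89 on the log2 scale. Ccl2 averaged 0.234 CPM in sham and 7.96 CPM in BCP rats, against the single counts of Ccr2. For Ccr1, the ligands Ccl3, Ccl5 and Ccl6 rose by 6.52, 3.91 and 1.88, and Ccl9 was not tested, with at most 9 counts per library. For Ccr7, Ccl19 had 2, 0 and 2 counts in sham and 7, 7 and 0 in BCP libraries, and Ccl21 had none. With 1 sham count each, the fold changes of Ccl3, Ccl7 and Ccl12 are imprecise.

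**Figure D5:**
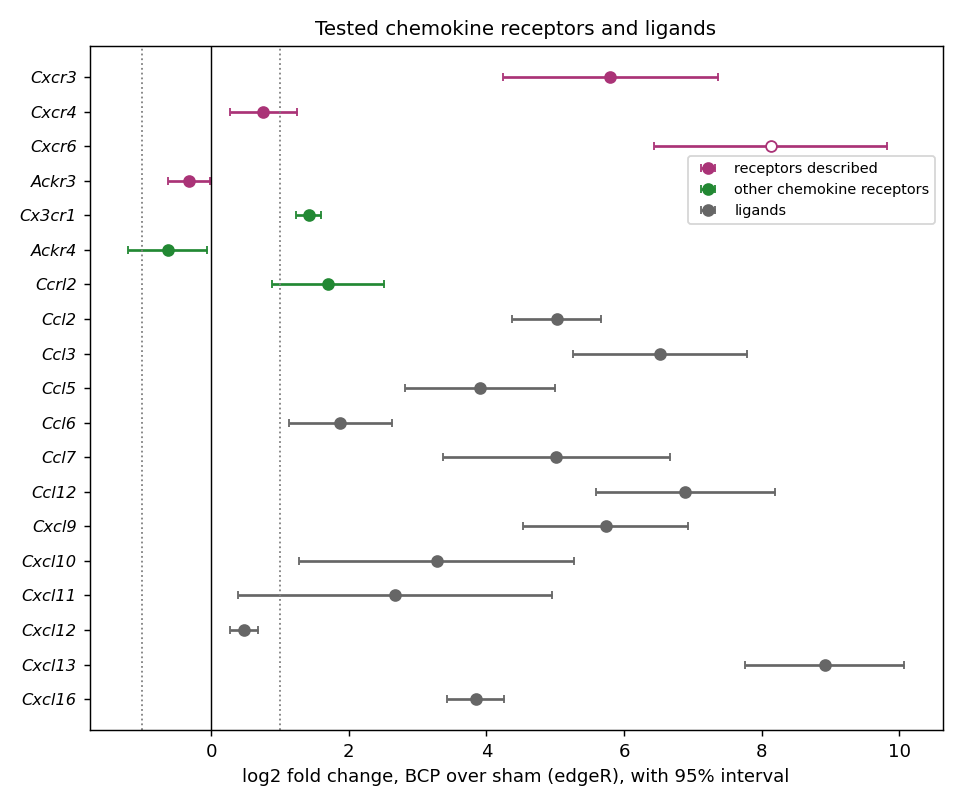
Log2 fold change of BCP over sham from edgeR with its 95% interval for the tested members (Cxcr3, Cxcr4, Cxcr6, Ackr3), the 3 other tested receptors and the 12 tested ligands. Dotted lines mark a 2-fold change, and the open symbol marks Cxcr6, whose sham counts were all 0. Ackr3 and Ackr4 are the points below 0.

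Of 28 listed genes of signaling below chemokine receptors, 26 were tested, 9 were called up-regulated and none down-regulated, with a median log2 fold change of 0.47. Those with the smallest p-values included Pik3cg, the catalytic subunit of phosphoinositide 3-kinase gamma (1.91 ± 0.09, SE), and its regulatory subunit Pik3r5 (2.44 ± 0.15). The exchange factor Vav1 (2.90 ± 0.17) and the hematopoietic GTPase Rac2 (3.36 ± 0.16) were also among them. The rest were the G protein regulators Rgs10 (1.16 ± 0.10) and Rgs1 (2.99 ± 0.29), the kinase Jak3 (1.43 ± 0.13) and the tyrosine kinase Ptk2b (0.73 ± 0.07). Ptk2b was below 2-fold, and the other 7 were called. Rgs1, with 6, 10 and 12 counts in sham and 50, 80 and 79 in BCP libraries, entered the test only through its BCP libraries. The arrestin Arrb2 had a log2 fold change of 0.56 ± 0.07 (SE), and the G protein beta subunit Gnb1 had one of -0.02 ± 0.04. Several of the called genes are made mainly by leukocytes and microglia, and the list was chosen with earlier results of these data known. The count of 9 is therefore not read against the 6.35% of all tested genes. Of 9 microglia markers 5 were called up-regulated, a count that is not read against that share either. The sums of these markers were 246 to 317 CPM in sham and 719 to 846 CPM in BCP libraries. The part of microglia in the values of the signaling genes was not tested.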

How the data were processed

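RNA of 3 BCP and 3 sham-operated rats was sequenced on an Illumina HiSeq instrument after a stranded library preparation. Per the paper's methods and the labels, reads were mapped to Rnor_6.0 with HISAT2 2.0.4, and the authors deposited counts and FPKM per gene and per noncoding transcript, made with StringTie 1.3.0 and a counter that is not given in the sources used here. The test on the counts was that of edgeR 4.0.16, run under R 4.3.3 (filterByExpr, TMM, robust quasi-likelihood, condition alone), with Benjamini-Hochberg adjustment over 14908 genes. DESeq2 1.42.0 was an alternative. FPKM served only to compare genes. Ratios with few counts have exact conditional 95% intervals, and the floor of 3 counts per library covers counting error only. The code was tested on simulated counts. Other alternatives were edgeR's exact and likelihood ratio tests, other filters and scalings, no fold threshold, a test against 2-fold, the replicate number as a block and each library left out. Named genes were the 8 members, the called and uncalled genes of the receptor and ligand lists, 8 signaling genes with the smallest p-values, and 3 most alike genes per tested member. Arrb2 and Gnb1 were named after their values were seen. Some genes of the receptor list are not reported here. Members and lists were chosen with earlier results of these data known. The list of epithelial genes was used for tumor cells. Figures were drawn with matplotlib 3.10.9.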

Additional observations from a re-analysis of the deposited data

How the results depend on the processing

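Cxcr3 and Cxcr6 were up-regulated and Ackr3 and Cxcr4 not called under every alternative run that kept them in the test, except that Cxcr4 passed with no threshold on the fold change. With at least 10 counts in every library, 0 of the receptors were up-regulated, because Cxcr3 and Cxcr6 were not tested, and 2 ligands were. Genes called up-regulated numbered 2352 with no fold threshold and 548 when tested against 2-fold. Genes called down-regulated numbered 10 with DESeq2, 37 without the filter, 6 with 10 counts in every library, 1805 with no fold threshold and 0 when tested against 2-fold. Leaving out 1 library gave 16 to 33 down-regulated genes, with 25 without sham 2 and 33 without BCP 1. Other receptors called up-regulated, 2 as reported, were 4 with DESeq2, 5 without the filter, and 1 both with 10 counts in every library and when tested against 2-fold. Signaling genes called with no fold threshold were 18 up-regulated and 1 down-regulated. With Csf1r in place of Ptprc, the ratios differed by 3.64 (Cxcr3), -0.71 (Cxcr4), 4.73 (Cxcr6) and -1.75 (Ackr3). With receptor counts under 3 set to 3, chosen after seeing the data, the ratios to Ptprc reversed to -0.62 (Cxcr3) and -0.067 (Cxcr6), by the construction of that floor, and those of Cxcr4 and Ackr3 were unchanged.

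The replicate numbers were treated as labels only, since the sources used here do not say whether they pair libraries. Deviations of libraries with the same number correlated at -0.11, 0.04 and -0.04. Of the 3 sham libraries, 2 correlated best with a BCP library of another number. With 3 libraries per group, these correlations cannot decide whether a pairing exists. With the replicate number as a block, 907 genes were up-regulated and 16 down-regulated, the receptors had 2 up-regulated genes, and Cxcl10 was no longer called, with an adjusted p-value of 0.135. Low counts limit Ccr1, Ccr2, Ccr7 and Cxcr5, whose absence from the test says nothing of their change.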
